A study of Homo sapiens with 7 samples.

Results

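The 45 genes described here drive the passage from G1 into S phase and copy the DNA, and they were taken by symbol from a list of E2F factors, G1/S cyclins, licensing factors, replication enzymes and nucleotide supply genes. All 45 were found among the 19978 genes of the deposited table, and all 45 were among the 14863 genes with enough counts to be tested. They comprised 5 E2F transcription factors, 9 cyclins, kinases and the phosphatase CDC25A, 11 origin licensing factors, 6 helicase activation factors, 10 polymerase, clamp and ligase genes and 4 nucleotide supply genes. The rule that picks them uses gene names only and no measured value. The list itself was chosen with earlier results of these data known.

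The study asked how prolonged mild acidification compares with inhibition of SR protein kinases in HEK-293, an established line of transformed human embryonic kidney cells. Poly(A) RNA was sequenced after 48 h in medium of pH 7.4 with DMSO (control, 2 samples), in medium of pH 7.4 with 10 µM SRPIN340, an inhibitor of SR protein kinases, in DMSO (SRPIN340, 2 samples), or in medium acidified to pH 6.6 with DMSO (acidosis, 3 samples). Samples are labelled as repeats, and the methods describe each biological repeat as sequenced in 3 replicates, whereas the table has 1 column per sample, so what was merged into a column is not known. All groups came from 1 cell line with DMSO in the medium, and no group combined acidified medium with the inhibitor. Cell numbers and cell cycle phases were not among the data analysed here, and in RNA from whole cultures fewer cells in a phase and less RNA per cell cannot be told apart.

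As background, cyclin D with CDK4 or CDK6, and then cyclin E with CDK2, phosphorylate the RB proteins, which frees the activating E2F factors to transcribe the genes of S phase. Origins are licensed in G1, when ORC, CDC6 and CDT1 load the MCM2 to MCM7 ring onto DNA, and geminin later blocks CDT1 so that no origin is licensed again. In S phase CDC45 and the GINS complex turn the ring into an active helicase, polymerase alpha and its primase start each strand, and polymerases epsilon and delta extend it with the clamp PCNA. HEK-293 cells carry adenoviral E1A, a protein known to bind the RB proteins.

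E2F factors bind a short GC-rich core in the promoters of many S-phase genes, and its presence was searched in RefSeq promoter windows (GRCh38.p14, 250 bases before to 50 bases after each annotated start). The versions searched were TTTCGCGC, TTTGGCGC, TTTCCCGC and TTTGCCGC, on both strands, and a window with several overlapping matches was counted once. A window was at hand for 37 of the 45 genes and not for E2F8, CCND1, CCND2, CCNE2, CDK2, MCM4, MCM5 and GINS4. At least 1 version was found in 21 of the 37 genes (56.8%, 95% Wilson interval 40.9% to 71.3%) and in 6.38% of the 11825 tested genes with a window. Among windows rather than genes, 42% of those of the 45 genes and 4.63% of those of all tested genes held a match. Stretches of 30 bases around the match are printed for 7 genes that passed the test in acidosis, 4 that rose and 3 that fell, because the same core lies in promoters of genes that moved in opposite directions. They run 5′ to 3′ on the strand of the gene, and the capitals mark the E2F core or, where it lies on the other strand, its reverse complement.
E2F2: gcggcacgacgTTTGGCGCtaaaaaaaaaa
CDT1: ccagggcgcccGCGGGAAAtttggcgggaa
GINS1: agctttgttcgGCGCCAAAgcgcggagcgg
POLE: tgggtgggagcGCGCCAAAtttctcccctg
CDC6: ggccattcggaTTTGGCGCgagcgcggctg
POLA2: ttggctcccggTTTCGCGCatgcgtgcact
TYMS: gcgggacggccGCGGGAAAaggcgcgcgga
The stretch of E2F2 is chr1:23531257-23531286 on the minus strand and that of POLE is chr12:132687342-132687371 on the minus strand. On the plus strand lie those of CDT1 at chr16:88803743-88803772, GINS1 at chr20:25407667-25407696, CDC6 at chr17:40287875-40287904, POLA2 at chr11:65261898-65261927 and TYMS at chr18:657603-657632. A match describes letters only, and binding of E2F factors was not measured.

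Library totals lay between 13615816 and 24110460 estimated counts, and the 45 genes held between 106 and 11560 counts per gene and sample. The composition of the libraries differed between groups. The 100 genes with the most counts took 15.2% to 15.4% of all counts at pH 7.4 and 24.1% to 24.8% in acidosis, and the scaling factors (TMM, trimmed mean of M values, which set libraries level on the bulk of their genes) were 1.17 to 1.21 at pH 7.4 and 0.782 to 0.800 in acidosis. The share of counts held by the 45 genes was 0.596% to 0.598% in control, 0.523% to 0.527% in SRPIN340 and 0.497% to 0.504% in acidosis samples, whereas their summed CPM (counts scaled to a common library total after TMM) was 5047 to 5103, 4319 to 4355 and 6262 to 6396. Whether the genes' sum was higher or lower in acidosis thus depended on the scaling, and results that change with it are named as they come. Of 9 HEK-293 markers, all were detected in every group, with a sum of 1456 to 1508 CPM in control and 3529 to 3541 CPM in acidosis, most of it VIM. Of 10 markers of other cell types, 4 in control and 6 in acidosis had 3 counts or fewer in every sample (CD3E was at 0 throughout), and the sum, mostly EPCAM, was 170 to 186 CPM in control, 200 to 203 CPM in SRPIN340 and 326 to 328 CPM in acidosis. The part of these differences in the results below was not tested.

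In acidosis the 45 genes did not move as a block. Relative to control, 20 rose, led by the cyclin CCND2, the repressor E2F7 and the helicase factor MCM10, and 16 fell, led by the primase subunit PRIM1, the cyclin CCNE2 and the helicase factors GINS4 and CDC45, at an adjusted p under 0.05 (edgeR quasi-likelihood test, Benjamini-Hochberg over all 14863 genes). The remaining 9 did not pass. Of all genes tested, 32.5% rose and 34.2% fell. Under total count scaling, described next, 11 of the 45 rose and 26 fell, and of all genes 16.2% rose and 55% fell. With a log2 fold change beyond 1 in either direction also required, 8 were higher (E2F2, E2F3, E2F7, CCND2, CDK2, CDT1, MCM10 and RRM2) and 5 lower (CCNE2, CDC45, GINS4, POLA2 and PRIM1), against 14.4% and 19.1% of all genes. The median log2 fold change of the 45 was 0.13 and that of all genes -0.052, and the medians of the absolute value were 0.73 and 0.74, so the genes changed about as much as genes in general. All samples entered 1 fit, and p-values measure the spread between the 2 or 3 samples of a group.

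With libraries scaled by their total count only, the median of all genes fell to -0.63 and that of the 45 to -0.44, while the distance between both medians was 0.19 under TMM and 0.18 under the total count. The genes called beyond a log2 fold change of 1 were then 2 higher and 15 lower, against 5.48% and 35% of all genes. Under both scalings 11 genes rose (E2F2, E2F3, E2F7, CCND2, CDK2, CDT1, MCM5, MCM10, GINS1, POLE and RRM2) and 16 fell. E2F1, CCND1, MCM2, ORC1 and POLD1 rose under TMM and kept a log2 fold change above 0 without passing under the total count. RFC3 and TK1 rose under TMM and had -0.047 and -0.11 under the total count. GINS3 and FEN1 passed in opposite directions, with 0.27 and 0.39 under TMM and -0.30 and -0.18 under the total count. CCND3, CDC25A, GMNN, MCM6, MCM7, GINS2, LIG1 and RRM1 did not pass under TMM and were lower under the total count, and E2F8 passed under neither.

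**Figure D1:**
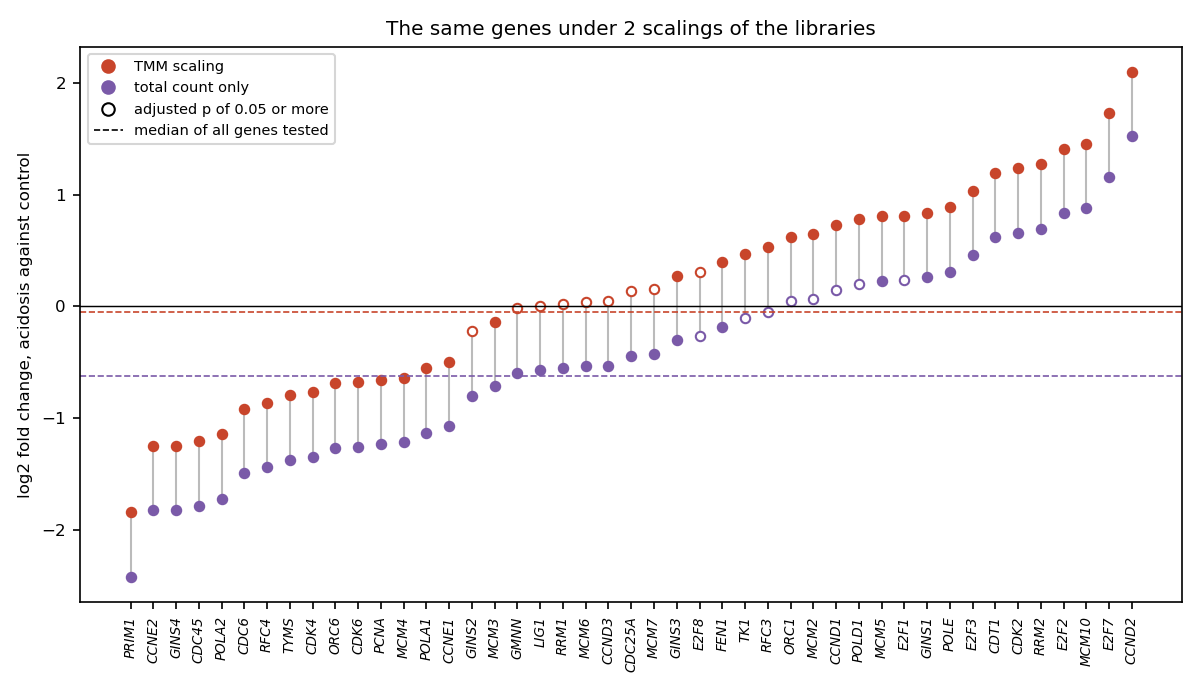
Log2 fold change of each of the 45 genes in acidosis against control (vertical axis) under TMM scaling (red) and under total count scaling (violet), with genes in order of the TMM value along the horizontal axis, open points for an adjusted p of 0.05 or more and dashed lines at the median of all genes tested (-0.052 and -0.63). The order of the genes is kept, and the level of the zero line moves: 11 genes rose and 16 fell under both scalings, and GINS3 and FEN1 passed in opposite directions.

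Of the 5 E2F genes 4 rose and E2F8 did not pass. E2F1, E2F2 and E2F3 are activators of S-phase genes, and E2F7 and E2F8 are repressors of the same genes that act without the usual partner protein. E2F7 read 71.4 and 69.8 CPM in control, 73.2 and 85.0 with SRPIN340 and 215, 249 and 238 in acidosis. The acidosis samples lay far above the others, which were close together, and the log2 fold change was 1.73 ± 0.095 (SE), a 3.31-fold rise (edgeR adjusted p = 2.7e-07). For E2F2 the values were 33.2 and 34.1 CPM in control, 36.1 and 34.4 with SRPIN340 and 90.3, 86.8 and 90.9 in acidosis, with the same separation and a log2 fold change of 1.41 ± 0.086 (SE, adjusted p = 5.2e-07). E2F3 rose by 1.03 ± 0.066 (SE) on the log2 scale, from 117 and 112 CPM to 227, 238 and 237 CPM. E2F1, the best known activator of the family, had 39.4 and 50.4 CPM in control, 45.7 and 46.3 with SRPIN340 and 78.8, 75.9 and 81.1 in acidosis. Its groups did not overlap and its log2 fold change was 0.81 ± 0.11 (SE, adjusted p = 1.3e-04), which under the total count was 0.23 and did not pass. E2F8 had 20.6 and 22.2 CPM in control and 29.7, 24.5 and 24.9 CPM in acidosis, with a log2 fold change of 0.31 ± 0.15 (SE, adjusted p = 0.093) that turned to -0.27 under the total count. Divided by the length of the canonical transcript, the order of mean levels in control was E2F3 (22.7 CPM per kb), E2F1 (16.7), E2F7 (12.3), E2F2 (6.47) and E2F8 (5.77). In acidosis E2F7 (40.9 CPM per kb) lay next to E2F3 (46.4), and E2F1 (29.2) came after both. E2F3 has named pseudogenes in the annotation, so its counts may hold reads of these copies.

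**Figure D2:**
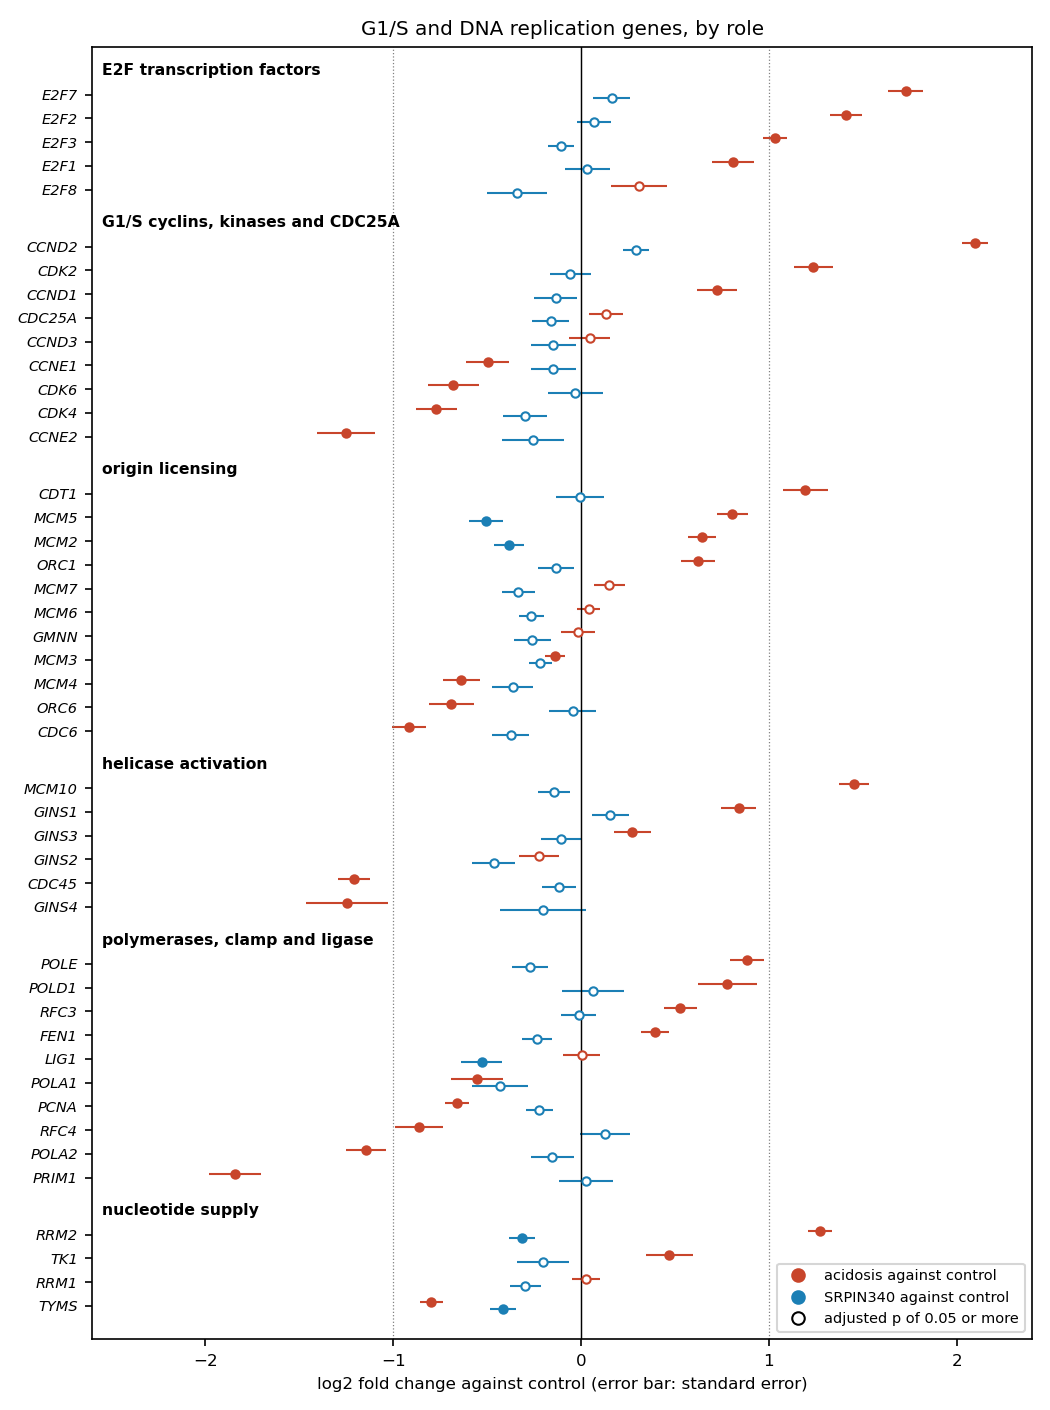
Log2 fold change against control (horizontal axis, TMM scaling) of the 45 genes in acidosis (red) and SRPIN340 (blue), grouped by role, with standard errors as bars, filled points for an adjusted p under 0.05 and dotted lines at -1 and 1. In acidosis the values run from -1.84 (PRIM1) to 2.09 (CCND2) and most roles hold genes on both sides of 0. With SRPIN340 they run from -0.53 to 0.29, with 37 of 45 below 0, beside 49.5% of all genes. Of the genes that passed in acidosis, GINS3, FEN1, RFC3 and TK1 change side under total count scaling.

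Among the cyclins and kinases of G1, 3 rose, 4 fell and CCND3 and CDC25A did not pass. The D cyclins pair with CDK4 and CDK6 early in G1. CCND2, which encodes cyclin D2 (chr12:4269771-4305353, plus strand, GRCh38, GENCODE release 44), was at 117 and 108 CPM in control, 139 and 136 with SRPIN340 and 465, 487 and 491 in acidosis. Its rise was the largest of the 45 genes under both scalings, with a log2 fold change of 2.09 ± 0.069 (SE), or 4.27-fold (edgeR adjusted p = 1.6e-08), and 1.52 under the total count. CCND1, which encodes cyclin D1, had 48.6 and 44.4 CPM in control, 42.5 and 42.3 with SRPIN340 and 72.3, 72.0 and 86.7 in acidosis. These groups were also apart, by 0.73 ± 0.11 (SE) on the log2 scale (adjusted p = 2.1e-04), which became 0.15 and did not pass under the total count. CCND3, for cyclin D3, had overlapping groups in acidosis and control and a log2 fold change of 0.045 ± 0.11 (SE), which under the total count was -0.53 and passed. Per kb of transcript the 3 D cyclins were within a small range in control, with means of 17.3 for CCND2, 13.2 for CCND3 and 11.0 CPM per kb for CCND1. In acidosis CCND2 reached 74.0 CPM per kb and CCND1 and CCND3 18.2 and 13.6. Another coding gene of the same strand overlaps 15.4% of the CCND2 transcript, which also has a named pseudogene, and the share of its counts that may belong there is unknown.

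CDK2, the kinase that pairs with cyclin E, rose, and the cyclin E genes fell. CDK2 had 92.0 and 96.7 CPM in control, 99.5 and 82.0 with SRPIN340 and 244, 211 and 212 in acidosis. All acidosis samples lay far above every other sample, and the log2 fold change was 1.24 ± 0.10 (SE, edgeR adjusted p = 4.5e-06). CCNE1 was at 40.2 and 37.4 CPM in control, 34.3 and 35.8 with SRPIN340 and 28.8, 24.2 and 29.2 in acidosis, a log2 fold change of -0.50 ± 0.11 (SE, adjusted p = 0.0033). CCNE2 was at 25.5 and 24.5 CPM in control, 17.8 and 24.1 with SRPIN340 and 11.0, 9.73 and 10.7 in acidosis. Its log2 fold change was -1.25 ± 0.16 (SE, adjusted p = 6.5e-05), and its SRPIN340 samples lay apart from each other. The kinases of the D cyclins also fell. CDK4 was at 135 and 146 CPM in control, 114 and 115 with SRPIN340 and 90.3, 68.8 and 87.6 in acidosis, and its log2 fold change was -0.77 ± 0.11 (SE, adjusted p = 1.6e-04). CDK6 fell by 0.68 ± 0.14 (SE) on the log2 scale, from 111 and 87.6 CPM in control to 55.0, 58.7 and 72.4 CPM in acidosis. CDC25A, the phosphatase that activates CDK2, had 70.3 and 77.9 CPM in control and 83.2, 75.6 and 84.9 CPM in acidosis, groups that overlap, with a log2 fold change of 0.13 ± 0.091 (SE) that turned to -0.44 under the total count. Genes on the other strand overlap 56.9% of the CCNE2 transcript (INTS8) and 57.8% of the CDK4 transcript (TSPAN31), and the strand setting of the counting is not given in the sources used here, so both values are uncertain.

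**Figure D3:**
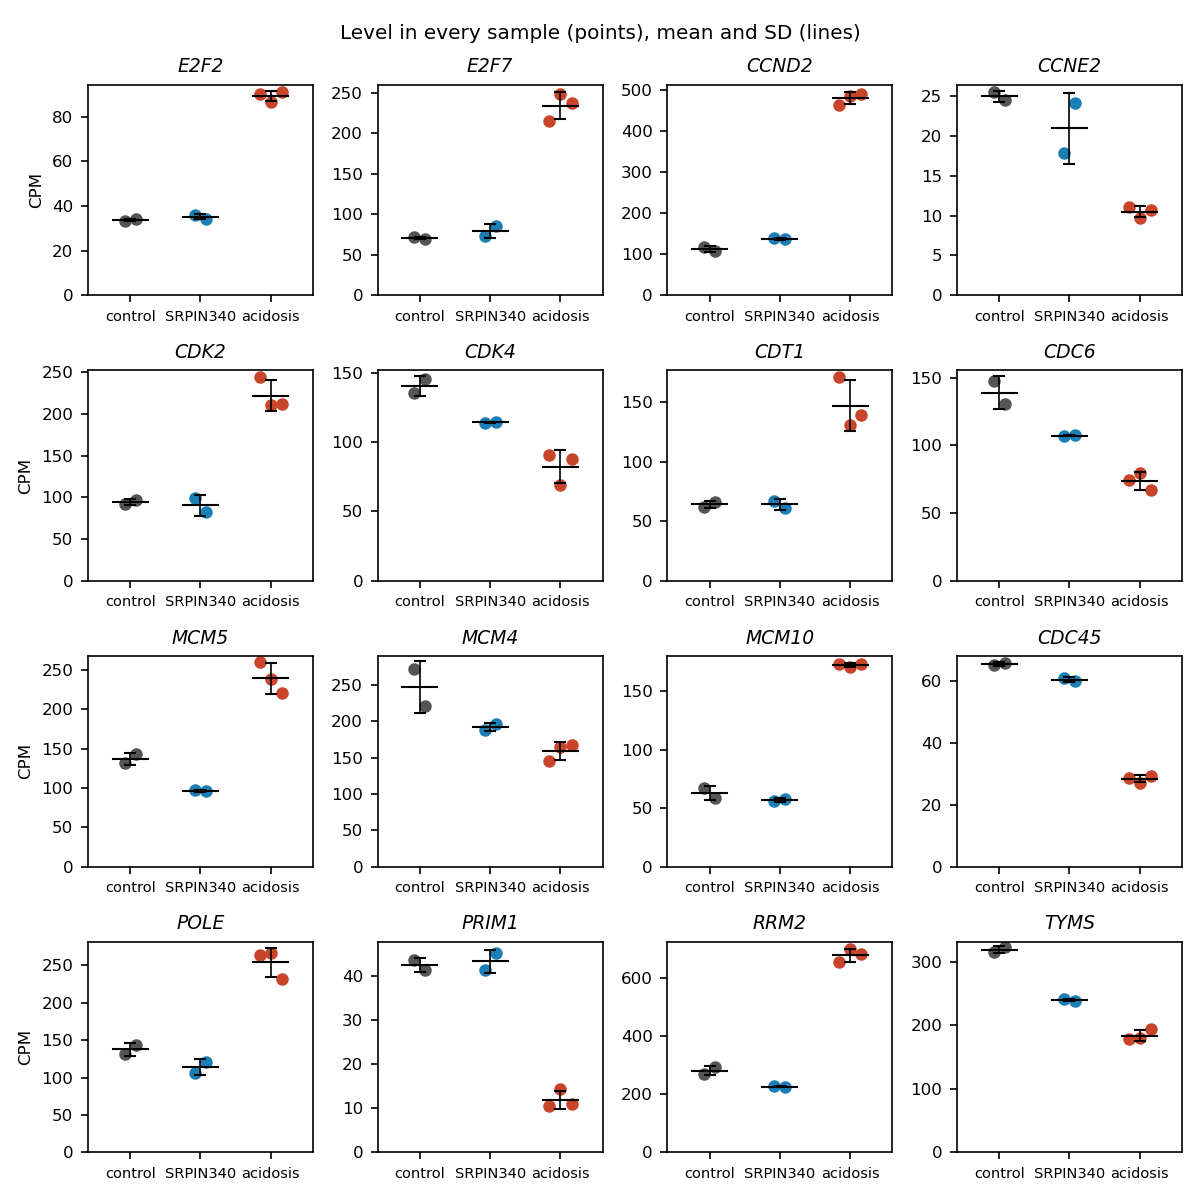
Level in CPM (vertical axis, from 0, TMM scaling) of 16 of the 45 genes in each control, SRPIN340 and acidosis sample (points), with the mean as a line and the SD as a bar (n = 2, 2 and 3). Genes of the same step part in acidosis: E2F2, E2F7, CCND2, CDK2, CDT1, MCM5, MCM10, POLE and RRM2 lie above both other groups, and CCNE2, CDK4, CDC6, MCM4, CDC45, PRIM1 and TYMS below them. Each of the 16 keeps its side of control under total count scaling.

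Origin licensing genes were split, with 4 higher, 4 lower and 3 not passing. CDT1 brings the MCM ring to the origin, and was at 62.4 and 66.5 CPM in control, 67.4 and 61.1 with SRPIN340 and 171, 131 and 139 in acidosis. The first acidosis sample was the highest, all acidosis samples lay above the rest, and the log2 fold change was 1.19 ± 0.12 (SE, edgeR adjusted p = 1.4e-05). GMNN encodes geminin, the inhibitor of CDT1, and had 137 and 124 CPM in control, 107 and 111 with SRPIN340 and 121, 143 and 124 in acidosis. Control and acidosis overlapped, with a log2 fold change of -0.018 ± 0.090 (SE, 95% interval -0.19 to 0.16), which under the total count was -0.59 and passed. CDC6, which loads the ring together with ORC, went the other way from CDT1, with 148 and 130.4 CPM in control, 107 and 107 with SRPIN340 and 74.6, 79.6 and 66.9 in acidosis. Its log2 fold change was -0.92 ± 0.092 (SE, adjusted p = 1.4e-05), and the SRPIN340 samples lay between the other groups. The 2 subunits of the origin recognition complex on the list parted as well. ORC6 had 66.0 and 68.2 CPM in control, 65.8 and 64.4 with SRPIN340 and 41.0, 48.3 and 35.8 in acidosis, a log2 fold change of -0.69 ± 0.12 (SE, adjusted p = 5.4e-04). ORC1 rose by 0.62 ± 0.090 (SE) on the log2 scale, from 35.4 and 34.7 CPM in control to 54.5, 55.4 and 52.4 CPM in acidosis, which under the total count was 0.050 and did not pass.

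The 6 subunits of the MCM ring, which work in equal numbers, did not move together in acidosis. MCM5 was at 131 and 143 CPM in control, 97.5 and 95.7 with SRPIN340 and 259, 239 and 219.9 in acidosis. It was highest in acidosis and lowest with SRPIN340, and the log2 fold change in acidosis was 0.81 ± 0.084 (SE, edgeR adjusted p = 1.9e-05). MCM2 had 124 and 134 CPM in control, 98.7 and 98.6 with SRPIN340 and 203, 189.5 and 211 in acidosis, the same order, with a log2 fold change in acidosis of 0.64 ± 0.075 (SE, adjusted p = 4.1e-05) that was 0.068 and did not pass under the total count. MCM4 fell by 0.64 ± 0.098 (SE) on the log2 scale, from 273 and 222 CPM in control to 145, 165 and 168 CPM in acidosis. MCM3 had a small log2 fold change of -0.14 ± 0.056 (SE, adjusted p = 0.049), and its call was lost in each of the settings that left out 1 sample except the one without the second control sample, with adjusted p from 0.073 to 0.19. MCM6 (0.041 ± 0.062, SE) and MCM7 (0.15 ± 0.081, SE) did not pass, and MCM7 passed without the second acidosis sample (0.22, adjusted p = 0.016). Under the total count MCM6 and MCM7 were lower, at -0.53 and -0.42. Per kb of transcript MCM7 and MCM3 were the highest in control, with means of 158 and 129.6 CPM per kb, followed by MCM4 (60.9), MCM6 (59.5), MCM5 (39.6) and MCM2 (37.5). MCM4 and MCM6 did not differ beyond their spread in control, nor did MCM5 and MCM2. In acidosis the order was MCM7 (175 CPM per kb), MCM3 (118), MCM5 (69.2), MCM6 (61.2), MCM2 (58.5) and MCM4 (39.2). MCM6 and MCM2 did not differ there beyond their spread, and MCM4 was the last.

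Of the genes that activate the helicase, 3 rose, 2 fell and GINS2 did not pass. MCM10 helps to open the loaded ring, and was at 67.0 and 58.9 CPM in control, 55.9 and 58.0 with SRPIN340 and 173, 170.3 and 173 in acidosis. The acidosis samples were nearly equal to each other and far above the rest, with a log2 fold change of 1.45 ± 0.081 (SE), or 2.74-fold (edgeR adjusted p = 3.1e-07). CDC45, a core part of the active helicase, had 65.0 and 65.9 CPM in control, 60.9 and 59.9 with SRPIN340 and 28.6, 27.1 and 29.2 in acidosis. Its samples were close to each other within each group, and it fell by 1.21 ± 0.086 (SE) on the log2 scale (adjusted p = 1.4e-06). The GINS genes encode the 4 subunits of one complex, and they parted. GINS1 was at 58.9 and 52.8 CPM in control, 59.5 and 65.0 with SRPIN340 and 95.1, 101 and 104 in acidosis, and rose by 0.84 ± 0.091 (SE) on the log2 scale (adjusted p = 2.5e-05). GINS4 was at 31.9 and 33.4 CPM in control, 28.3 and 28.5 with SRPIN340 and 18.6, 12.6 and 9.54 in acidosis, a wide spread within acidosis but no overlap with control, with a log2 fold change of -1.25 ± 0.22 (SE, adjusted p = 6.1e-04). GINS2 had a log2 fold change of -0.22 ± 0.11 (SE) and did not pass, and GINS3 had 0.27 ± 0.099 (SE, adjusted p = 0.034). The GINS3 call was lost without the first control sample (0.19, adjusted p = 0.23), without the third acidosis sample (0.25, adjusted p = 0.075) and without either SRPIN340 sample (adjusted p = 0.059), and it turned to -0.30 under the total count.

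Polymerase alpha and its primase fell, whereas the catalytic subunits of the polymerases that extend the strands rose under TMM. Of these subunits only POLE also passed as higher under the total count. PRIM1, which makes the RNA primer (chr12:56730438-56752374, minus strand, GRCh38), was at 43.5 and 41.2 CPM in control, 41.3 and 45.1 with SRPIN340 and 10.5, 14.2 and 11.0 in acidosis. This was the deepest fall of the 45 genes under both scalings, with a log2 fold change of -1.84 ± 0.14 (SE), or 3.59-fold lower (edgeR adjusted p = 2.0e-06). POLA2, the regulatory subunit of polymerase alpha, had 53.1 and 55.7 CPM in control, 45.8 and 52.0 with SRPIN340 and 25.5, 22.4 and 25.8 in acidosis, and fell by 1.14 ± 0.11 (SE) on the log2 scale (adjusted p = 8.8e-06). POLA1, the catalytic subunit, was at 94.2 and 93.6 CPM in control, 66.9 and 72.5 with SRPIN340 and 68.1, 73.4 and 50.2 in acidosis. Here the SRPIN340 and acidosis samples overlapped and both lay below control, with a log2 fold change in acidosis of -0.55 ± 0.14 (SE, adjusted p = 0.0053). With SRPIN340 the log2 fold change of POLA1 was -0.43 ± 0.15 (SE, edgeR adjusted p = 0.18) and did not pass. POLE, the catalytic subunit of the leading-strand polymerase epsilon, had 132 and 144 CPM in control, 107 and 121 with SRPIN340 and 263, 267 and 232 in acidosis, a log2 fold change of 0.88 ± 0.090 (SE, adjusted p = 1.7e-05). POLD1, of the lagging-strand polymerase delta, had 38.9 and 47.9 CPM in control, 48.2 and 42.7 with SRPIN340 and 88.8, 62.2 and 72.0 in acidosis. It rose by 0.78 ± 0.16 (SE) on the log2 scale (adjusted p = 0.0015), which was 0.20 and did not pass under the total count. The annotation places other coding genes of the same strand over 55.8% of the POLA2, 12.4% of the POLD1 and, with a gene on the other strand, 37.5% of the PRIM1 transcript, so the split of reads between them is uncertain.

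The clamp and its loader fell in part. PCNA, the sliding clamp, was at 305 and 281 CPM in control, 249 and 254 with SRPIN340 and 189, 177 and 190.5 in acidosis. The 3 groups were stepwise apart, and the log2 fold change in acidosis was -0.66 ± 0.066 (SE, edgeR adjusted p = 1.4e-05). Of the clamp loader, RFC4 fell by 0.86 ± 0.13 (SE) and RFC3 rose by 0.53 ± 0.088 (SE) on the log2 scale, the second of these with -0.047 under the total count. FEN1, the nuclease that trims the ends of lagging-strand fragments, had 0.39 ± 0.074 (SE) under TMM and passed in the opposite direction under the total count (-0.18). LIG1, the ligase that joins the fragments, had 98.3 and 87.0 CPM in control and 101, 93.7 and 84.3 CPM in acidosis, overlapping groups with a log2 fold change of 0.0046 ± 0.099 (SE, 95% interval -0.19 to 0.20) and of -0.57 under the total count. PCNA, RFC3 and FEN1 have named pseudogenes.

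The nucleotide supply genes differed within one enzyme. RRM1 and RRM2 encode the subunits of ribonucleotide reductase, which makes deoxynucleotides. RRM2 was at 270.2 and 293 CPM in control, 228 and 225 with SRPIN340 and 655, 700.4 and 683 in acidosis, a log2 fold change in acidosis of 1.27 ± 0.064 (SE), or 2.41-fold (edgeR adjusted p = 1.7e-07). RRM1 had 246 and 224 CPM in control and 241, 228 and 249.5 CPM in acidosis, overlapping groups with 0.026 ± 0.076 (SE) on the log2 scale, and -0.55 under the total count, which passed. Thymidylate can be made from dUMP by TYMS or from thymidine by TK1, and these 2 genes parted. TYMS was at 316 and 323 CPM in control, 241 and 239 with SRPIN340 and 179, 179 and 193 in acidosis, and fell by 0.80 ± 0.062 (SE) on the log2 scale (adjusted p = 2.6e-06). TK1 had 41.3 and 52.9 CPM in control, 39.5 and 42.3 with SRPIN340 and 66.5, 58.8 and 70.5 in acidosis, with a log2 fold change of 0.47 ± 0.13 (SE, adjusted p = 0.0081). The TK1 call was lost without the first control sample (0.30, adjusted p = 0.091), and its value was -0.11 under the total count. RRM2 and TYMS have named pseudogenes, and ENOSF1 on the other strand overlaps 60% of the TYMS transcript.

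Ratios between 2 genes of the same sample do not depend on how libraries are scaled. For 11 pairs, chosen by role, the log2 ratio of the estimated counts was computed in every sample. The genes were chosen with earlier results of these data known. In all 11 the acidosis samples lay outside the range of the control samples. Each exact two-sided permutation test gave p = 0.2, the smallest that the test in the form used can give with 3 against 2 samples. Pairs of other genes were not computed, so the share of such pairs that lie apart is not known. Among single genes, 32.5% of all tested rose and 34.2% fell in acidosis, which is another measure and does not stand in for that share. CDC45 relative to MCM2 showed the largest shift, with log2 ratios of -0.93 and -1.02 in control, -0.70 and -0.72 with SRPIN340 and -2.82, -2.80 and -2.85 in acidosis, a difference of -1.85 between acidosis and control. CDC6 relative to ORC1 shifted by -1.54, from 2.06 and 1.91 in control to 0.45, 0.52 and 0.35 in acidosis. The licensing factor CDT1 relative to its inhibitor GMNN went from -1.14 and -0.90 in control, with -0.67 and -0.86 in SRPIN340, to 0.51, -0.12 and 0.17 in acidosis, a difference of 1.20 or 2.30-fold. CCND2 relative to CCND1 went from 1.27 and 1.28 to 2.68, 2.76 and 2.50, and RRM2 relative to RRM1 from 0.14 and 0.38 to 1.44, 1.62 and 1.45. PRIM1 relative to POLA1 (-1.27) and TYMS relative to TK1 (-1.27) were lower in acidosis, as were CCNE2 relative to CCNE1 (-0.75) and E2F8 relative to E2F1 (-0.52). E2F7 relative to E2F1 (0.91) and MCM10 relative to MCM2 (0.81) were higher. With SRPIN340, 8 of the 11 ratios lay outside the range of control, where 2 against 2 samples cannot give a p below 0.333, and E2F7/E2F1, CCNE2/CCNE1 and RRM2/RRM1 changed sign when a sample was left out. The largest difference was that of PRIM1 to POLA1 (0.46).

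**Figure D4:**
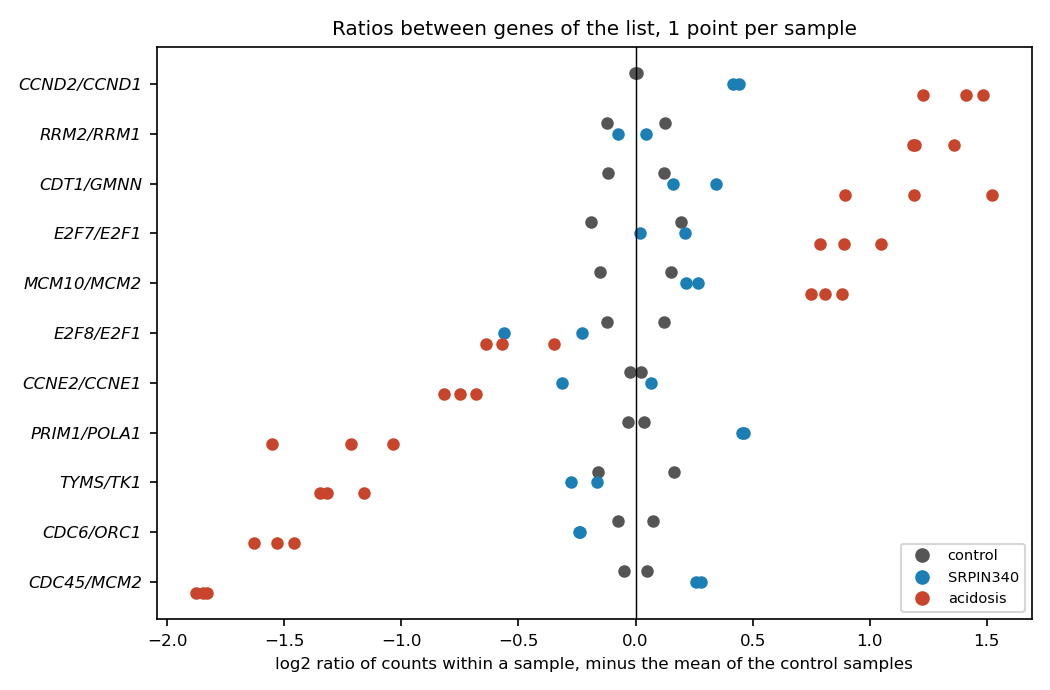
Log2 ratio of the estimated counts of 2 genes within each sample, less the mean of the control samples (horizontal axis), for 11 pairs (vertical axis) in control (grey), SRPIN340 (blue) and acidosis (red) samples. The ratios do not depend on library scaling, and in every pair the 3 acidosis points lie outside the control points, from -1.85 on average for CDC45/MCM2 to 1.37 for CCND2/CCND1. Pairs of other genes were not computed.

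With SRPIN340 the genes that passed were lower than control. MCM2, MCM5, LIG1, RRM2 and TYMS fell, which is 5 of 45, and none rose (edgeR). Of all genes tested 1.53% fell and 0.767% rose. At an unadjusted p under 0.05, 18 of the 45 were lower and 1, CCND2, was higher, against 9.48% and 8.15% of all genes. DESeq2 passed 12 lower and CCND2 higher, against 5.44% and 3.19% of the genes it adjusted. Under the total count MCM5 and TYMS passed lower and CCND2 higher, against 1.09% and 1.08% of all genes. No gene of the 45 reached a log2 fold change of 1, and 0.323% of all genes were called at that limit. In sign alone 37 of the 45 were below control, beside 49.5% of all genes. The median log2 fold change of the 45 was -0.16 and that of all genes 0.0024. The signs of the 45 genes rest on the same 4 samples and are not independent of each other.

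TYMS had the smallest p of these, with a log2 fold change of -0.41 ± 0.068 (SE, edgeR adjusted p = 0.023). MCM5 fell by 0.50 ± 0.090 (SE, adjusted p = 0.031) and MCM2 by 0.38 ± 0.081 (SE, adjusted p = 0.047) on the log2 scale. All 6 subunits of the MCM ring were lower at an unadjusted p under 0.05 (edgeR), as were 9.48% of all genes. They ran from -0.22 ± 0.061 (SE) for MCM3 to the value of MCM5, and 2 of them passed. LIG1 was at 98.3 and 87.0 CPM in control and 66.6 and 61.8 CPM with SRPIN340, a log2 fold change of -0.53 ± 0.11 (SE, adjusted p = 0.041). RRM2 fell by 0.31 ± 0.068 (SE, adjusted p = 0.0497), close to the threshold. CCND2 was the member furthest above control, at 0.29 ± 0.070 (SE, adjusted p = 0.066), with both SRPIN340 samples above both control samples. For E2F1 the 95% interval of the log2 fold change was -0.20 to 0.27 and for CDT1 -0.25 to 0.24. Such intervals are no limit of detection. In counts simulated for SRPIN340 against control, 200 of 14863 genes were given a change. Among the changed genes, edgeR passed 23.9% of those given a log2 change of 0.5 and 76.1% of those given 1. Both shares refer to tested genes in general and were not computed for the genes described here. What could be detected in the genes described here was thus not tested. These 5 calls rest on each of the 4 samples compared: without any 1 of the control or SRPIN340 samples none of the 5 passed, with adjusted p for TYMS from 0.096 to 0.24, and 3 passed without the first or the third acidosis sample, which lost MCM2 (adjusted p = 0.068 and 0.057) and RRM2 (adjusted p = 0.068 and 0.070).

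Set directly against SRPIN340, acidosis showed 27 of the 45 genes higher and 14 lower, against 32.8% and 35% of all genes (edgeR), with a median log2 difference of 0.38. Under the total count 11 were higher and 22 lower, against 15.8% and 56.9% of all genes. The calls lost there were E2F1, E2F8, CCND1, MCM7, ORC1, GINS1, GINS3, POLD1, RFC3, FEN1, LIG1 and TK1. Of the genes that passed under TMM, CDC25A, GMNN, MCM6, MCM7, GINS3, RFC3, LIG1 and RRM1 changed sign. This comparison shares its acidosis samples with the first and its SRPIN340 samples with the second, so the values are given side by side. MCM5 differed by 1.31 ± 0.086 (SE, adjusted p = 8.2e-07) and MCM2 by 1.03 ± 0.076 (SE, adjusted p = 1.9e-06), and RRM2 by 1.58 ± 0.065 (SE, adjusted p = 5.0e-08). Each of these 3 was below control with SRPIN340 and above it in acidosis. LIG1 differed by 0.53 ± 0.10 (SE, adjusted p = 0.001), and this turned to -0.081 under the total count. TYMS was below control in both and lower still in acidosis, by 0.38 ± 0.063 (SE, adjusted p = 4.1e-04). CDC6 and PCNA followed the same order, with log2 differences of -0.54 ± 0.093 and -0.44 ± 0.066 (SE) between acidosis and SRPIN340. Neither passed in SRPIN340 against control (edgeR adjusted p = 0.090 for CDC6 and 0.15 for PCNA). POLA1, CCND3, MCM3 and GINS2 did not pass in this comparison. For POLA1 the difference was -0.12 ± 0.14 (SE).

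The 21 genes with an E2F core in their promoter window were spread over all outcomes in acidosis. Among genes with a window, the core was found in 9 of 16 that rose (56.2%), 6 of 13 that fell (46.2%) and 6 of 8 that did not pass. The Wilson intervals of the first 2 shares, 33.2% to 76.9% and 23.2% to 70.9%, overlap over most of their length, and they cover counting error only. With the 2 versions TTTCGCGC and TTTGGCGC alone, 35.1% of the 37 genes and 2.44% of all tested genes held a match, and in the part before the start alone the shares were 45.9% and 5.4%. A CCAAT box was in 62.2% of the 37 and 43.3% of all tested genes, and TTTGAA, the core of the CHR element of mitotic genes, in 5.41% and 14.2%. RRM2, MCM10, PRIM1, CDC45 and E2F7, all with a log2 fold change beyond 1 in acidosis, had none of the 4 versions in these windows. E2F2, E2F3, CDT1 and POLA2, also beyond 1, held at least 1 version. CCND2, CCNE2, CDK2 and GINS4, beyond 1 as well, had no window.

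Genes that rose had longer transcripts than genes that fell. The median canonical length was 3372.5 bases for the 20 that rose, 2314 bases for the 16 that fell and 3125 bases for the others, where among all genes tested it was 3175.5 bases for those that rose and 3660 for those that fell. Across the 45 genes the length and the log2 fold change in acidosis had a Pearson correlation of 0.38 and a Spearman correlation of 0.39, and across all genes -0.093 and -0.083. For GC content these were 0.26 and 0.21 over the 45 and 0.042 and 0.049 over all. The points share their 7 libraries, and whether length bears on the values was not tested.

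A further 68 genes of the pathway, listed by role, were tested in the same fit. Of these 15 rose, 35 fell and 18 did not pass in acidosis, beside 32.5% and 34.2% of all genes, and their median log2 fold change was -0.25. Under the total count 6 rose and 53 fell, beside 16.2% and 55% of all genes, with a median of -0.83. Among the other origin recognition and MCM-related proteins 5 of 7 fell and 2 did not pass, and the counts were the same among chromatin factors of the fork, while under the total count all 7 of each fell. ORC5, another origin recognition subunit, was at 30.3 and 26.3 CPM in control, 24.9 and 26.2 with SRPIN340 and 4.34, 4.68 and 5.16 in acidosis, a log2 fold change of -2.59 ± 0.14 (SE, edgeR adjusted p = 2.9e-07). DSCC1, of an alternative clamp loader, had 18.7 and 18.7 CPM in control, 23.5 and 24.0 with SRPIN340 and 3.86, 4.77 and 5.25 in acidosis, and fell by 2.03 ± 0.16 (SE) on the log2 scale. SAMHD1, which breaks down deoxynucleotides, had 99.97 and 92.4 CPM in control, 63.0 and 64.3 with SRPIN340 and 25.3, 26.2 and 21.2 in acidosis. Its groups were stepwise apart, with -1.99 ± 0.10 (SE) in acidosis and -0.60 ± 0.11 (SE, adjusted p = 0.032) with SRPIN340. PRIM2, the partner of PRIM1 in primase, fell by 1.85 on the log2 scale, and RPA1, the large subunit of the protein that coats single strands, by 1.62. LIN52, a subunit of a complex that controls cell cycle genes, rose by 1.57 ± 0.10 (SE). Its levels were 22.3 and 23.9 CPM in control, 18.3 and 18.2 with SRPIN340 and 69.9, 63.9 and 70.9 in acidosis. It was listed with 12 genes for E2F partners, RB family proteins and such subunits, of which 4 rose, 5 fell and 3 did not pass. RBL1 (-1.07), RBL2 (-1.06), LIN9 (-0.57) and LIN37 (-0.50) fell, and LIN54 (0.81) rose. Under the total count 2 of the 12 rose and 7 fell, and LIN54 (0.23) did not pass. POLD2, an accessory subunit of polymerase delta, had 109.6 and 108 CPM in control, 98.2 and 90.3 with SRPIN340 and 291, 297 and 288 in acidosis. POLD2 rose by 1.42 ± 0.068 (SE), and the catalytic subunit POLD1 passed as higher under TMM only. Of the other delta subunits, POLD3 fell (-0.48 ± 0.12, SE, edgeR adjusted p = 0.0069) and POLD4 did not pass (0.40 ± 0.34, SE). Of the other epsilon subunits, POLE2 fell (-0.97 ± 0.16, SE, edgeR adjusted p = 3.7e-04), POLE4 rose (0.48 ± 0.17, SE, adjusted p = 0.032) and POLE3 did not pass (0.16). Under the total count POLE2 (-1.55) and POLE3 (-0.42) passed as lower and POLE4 (-0.091) did not pass. DCK, which phosphorylates deoxycytidine, had 30.4 and 29.3 CPM in control, 33.2 and 35.0 with SRPIN340 and 55.7, 64.5 and 61.3 in acidosis, a log2 fold change of 1.02 ± 0.10 (SE, adjusted p = 1.4e-05). With SRPIN340, UHRF1, a chromatin factor that helps to copy DNA methylation, also fell, by 0.44 ± 0.069 (SE, edgeR adjusted p = 0.018) on the log2 scale.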

How the data were processed

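Poly(A) RNA of 7 HEK-293 samples (2 control, 2 SRPIN340, 3 acidosis) was analysed. Per the labels and methods, the authors trimmed reads with Trimmomatic 0.39 and Trim Galore 0.6.6, ran Salmon 1.5.1 on the Gencode GRCh38.p13 transcripts and used tximport to reach gene level. What they deposited is an estimated count for each gene and sample, without normalization between samples. The tximport option and strand setting are not given in the sources used here. Salmon's estimates share reads between similar sequences, which makes overlapping genes and pseudogenes uncertain.

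The rounded counts of all 7 samples entered 1 edgeR fit (version 4.0.16, R 4.3.3) with TMM factors, filterByExpr and the quasi-likelihood test. A gene passed when its p, adjusted by Benjamini-Hochberg, was under 0.05, and was called when its absolute log2 fold change was also over 1. Standard errors come from the test statistic. Ratios used a pseudocount of 0.5 counts. Python 3.11.15 and scipy 1.17.1 were used for promoter windows and matplotlib 3.10.9 for figures. Gene positions and lengths come from GENCODE release 44, which matched 19977 of 19978 identifiers. The tests were checked on simulated counts.

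The genes and lists were chosen with earlier results of these data known. Values in every sample are given for 13 genes widely used as markers of their step, for the 2 highest and 2 lowest changes among genes that passed in each role, for all that passed with SRPIN340 and for the 3 highest and 3 lowest of the wider list called in acidosis, and others named were chosen after their values were seen. Alternatives were other scalings, filters, DESeq2 1.42.0, fewer samples, a replicate block and each sample left out. Some genes of the marker and wider lists are not reported here by name.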

Additional observations from a re-analysis of the deposited data

How the results depend on the processing

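In acidosis against control and against SRPIN340, the counts of calls moved most with the scaling. With the total count only, 2 of the 45 genes were called higher and 15 called lower in acidosis against control, 11 passed higher and 26 lower (all genes: 5.48% and 35% called, 16.2% and 55% passed), and the median was -0.44. The same scaling gave 1 higher (CCND2) and 2 lower (MCM5 and TYMS) for SRPIN340 against control, and 11 higher and 22 lower (all genes: 15.8% and 56.9%) for acidosis against SRPIN340. Log2 fold changes in acidosis against control that turned sign under it were E2F8 (-0.27, which passed under neither), CCND3 (-0.53), CDC25A (-0.44), MCM6 (-0.53), MCM7 (-0.42), GINS3 (-0.30), RFC3 (-0.047), FEN1 (-0.18), LIG1 (-0.57), RRM1 (-0.55) and TK1 (-0.11), and LIG1 was -0.081 in acidosis against SRPIN340, 1 of 8 genes that passed there and turned sign. DESeq2 passed 1 gene higher and 12 lower with SRPIN340, and over all genes 330 higher and 562 lower where edgeR passed 114 and 228. A fit of only the 2 groups compared passed 236 and 368. With each sample left out in turn, the 5 genes lower with SRPIN340 became 0 to 6, and over all genes 4 to 207 passed higher and 10 to 319 lower. Leaving out samples gave 18 to 21 genes higher and 15 to 16 lower in acidosis against control, and 23 to 27 higher and 12 to 14 lower in acidosis against SRPIN340. Repeat numbers were not taken to pair the samples, since the labels give no shared origin. Deviations of control and SRPIN340 samples of the same number correlated at -0.18, and of control and acidosis samples at -0.29 and -0.34, with 0.15 and 0.13 for SRPIN340 and acidosis samples. For unlike numbers the correlation was 0.18 for control 1 with SRPIN340 2, 0.34 for control 1 with acidosis 2 and 0.29 for control 2 with acidosis 1. It was -0.13 for SRPIN340 1 with acidosis 2 and -0.15 for SRPIN340 2 with acidosis 1. In a group of 2 samples the deviations from the mean mirror each other, so these values cannot decide whether samples are paired. With the replicate block 0 genes passed lower with SRPIN340, 13 higher and 38 lower over all genes, and in acidosis against control MCM3 and GINS3 no longer passed. The cause of these differences was not tested. All 11 ratios between genes in acidosis against control kept their direction with a pseudocount of 5 and with each of these samples left out, as did 8 of 11 with SRPIN340 when a sample was left out. The 2 samples a group limit what could be detected with SRPIN340.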
